A study of Mus musculus with 8 samples.

Results

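The NF-kB family was followed through the genes of its 5 subunits (Nfkb1, Nfkb2, Rel, Rela and Relb) and of 5 proteins that restrain it (Nfkbia, Nfkbib, Nfkbid, Nfkbie and Tnfaip3). These 10 genes were chosen by symbol, with earlier results of these data known, from the 19703 genes of the deposited table. All 10 had a row and passed the filter on low values. The cells were mouse Tregs (regulatory T cells), CD4 T cells marked by FOXP3 that hold immune responses in check, sorted by the GFP of a FOXP3-GFP reporter strain. In culture they received beads against CD3 and CD28 and the Th17-favouring cytokines IL6, IL23 and IL1B, and polyadenylated RNA was sequenced on day 6. The 4 libraries titled untreated had nothing else added, and those titled FcCD70 also received soluble CD70, which binds the costimulatory receptor CD27. The titles name the cells WT in both groups, the labels give no age, and no source used here says whether numbered cultures came from separate mice, so the p-values measure the spread between these libraries, which may be technical. Of 4 FcCD70 samples named, 3 had a library column. In each of the 8 samples the treatment field contradicts the title. The groups here are those of the titles, and if the titles are wrong each direction turns.

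NF-kB factors are pairs of REL-domain proteins. In the canonical branch IkB proteins hold p50, RELA and c-REL pairs in the cytoplasm until the IKK complex marks the IkB proteins for destruction. In the alternative branch, used by many TNF receptor family members, p100 is cut to p52, which acts with RELB. CD27 belongs to the TNF receptor family, and c-REL is known for its part in Foxp3 expression in Tregs. Several inhibitors, Nfkbia and Tnfaip3 among them, are themselves switched on by NF-kB and close a feedback loop. Much of this control acts on proteins and their location, whereas the data here hold mRNA levels only. In bulk RNA, fewer cells of a type and less RNA per cell cannot be told apart.

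The promoters of 3 members are shown because NF-kB factors act on genes through short kB sites, and each of these windows holds letters that match the kB consensus. None of them lies in an annotated exon of its gene, apart from 1 base of the Rel window. The sequences are the 250 bases before the start site in RefSeq's annotation of GRCm38.p6, printed from 5′ to 3′ on the gene's strand, with the matching letters in capitals. The window of Nfkbia, the gene of IkB-alpha, lies at chr12:55492648-55492897 on the minus strand, with the match beginning 29 bases before the start.
Nfkbia: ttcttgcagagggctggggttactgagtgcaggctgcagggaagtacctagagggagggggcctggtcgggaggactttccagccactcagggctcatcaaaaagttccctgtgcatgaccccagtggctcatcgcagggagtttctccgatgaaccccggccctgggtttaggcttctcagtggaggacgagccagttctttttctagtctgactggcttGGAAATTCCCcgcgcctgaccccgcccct
The window of Nfkbie, the gene of IkB-epsilon, lies at chr17:45555450-45555699 on the plus strand, with the match beginning 106 bases before the start.
Nfkbie: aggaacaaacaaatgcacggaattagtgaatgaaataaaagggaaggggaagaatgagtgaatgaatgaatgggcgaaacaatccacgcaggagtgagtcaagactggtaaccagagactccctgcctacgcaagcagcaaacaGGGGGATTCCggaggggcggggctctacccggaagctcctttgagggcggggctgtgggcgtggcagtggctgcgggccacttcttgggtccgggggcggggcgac
The window of Rel, the gene of c-REL, lies at chr11:23770970-23771219 on the minus strand, with overlapping matches beginning 92 and 91 bases before the start.
Rel: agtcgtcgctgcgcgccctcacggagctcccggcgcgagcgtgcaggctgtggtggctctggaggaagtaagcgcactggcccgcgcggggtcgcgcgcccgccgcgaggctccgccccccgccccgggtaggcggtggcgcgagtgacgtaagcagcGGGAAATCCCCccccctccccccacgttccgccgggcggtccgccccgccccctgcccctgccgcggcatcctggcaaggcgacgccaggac
The motif has 10 letters, reads the same on both strands, and matches may overlap. RefSeq's table held 13 windows for 8 of the 10 members. Of these, 8 windows of 6 members (Nfkb2, Rel, Nfkbia, Nfkbid, Nfkbie and Tnfaip3) held a match, and those of Rela and Nfkbib held none. In the same 250 bases before the start, 9.55% of all 32851 windows of the table held a match, and 10.8% of 27025 genes had a window with one. A match describes the letters of the window and is no evidence of binding in these cells.

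The untreated libraries held 18159685 to 23527899 reads in genes and the FcCD70 libraries 18183470 to 23359331. Each member was counted with at least 323 reads in each library, and Nfkb1 with up to 10296. Libraries with the same number were treated as pairs, as the name the authors gave their table calls the analysis paired. On the first principal component, which held 33.9% of the variance, the libraries numbered 1 and 2 lay at -30.3 to -14.0 apart from FcCD70 library 2 at 0.75, and those numbered 3 and 4 at 18.6 to 24.6. FcCD70 library 2 stood apart on the second component (27.3% of the variance), at -46.7 against 5.13 to 11.8 for the others. Its summed normalized count of 6 CD4 T cell and Treg markers was 54432, against 64939 to 69401 in the other 6 libraries, whose range holds both groups. Foxp3, the gene of the sort, stood there at 2788 normalized counts, against 4811 to 6585 in the other 6. Cd4 (10796) and Il2ra (13798) were also lowest in that library. Cd3e (6921), Ctla4 (15214) and Ikzf2 (4914) lay there within the range of the other 6, so the markers did not fall as a set. The markers of other cells were low, summing to 146 to 270 normalized counts for B cells, 118 to 201 for CD8 T cells and at most 4.49 for macrophages and monocytes. For dendritic cells the sum was 15.7 to 25.3 in untreated and 13.2 to 65.1 in FcCD70 libraries, and for NK cells 220 to 622 and 354 to 654, with Ncr1 at 0 in each. The part of these markers in the results was not tested.

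All 10 genes were expressed in each library of both groups. Levels are given as RPKM, reads per kilobase of the longest coding transcript per 1000000 reads of the table, as the mean ± SD over the 7 libraries of both groups. Nfkbia was highest at 122 ± 16.5 RPKM (SD, n = 7), followed by Nfkb1, the gene of p105 and p50, at 102 ± 10.1. The ranges of these genes overlapped, but Nfkbia was above Nfkb1 in 7 of 7 libraries. Rela, the main activating subunit, stood at 40.4 ± 2.68 RPKM and Tnfaip3, the gene of the ubiquitin-editing enzyme A20, at 36.02 ± 6.44, and these overlapped, with Rela above in 4 of 7 libraries. Relb followed at 28.4 ± 5.83 RPKM and Nfkb2, the gene of p100 and p52, at 25.3 ± 4.16, again with overlapping ranges. Rel at 15.8 ± 1.56 RPKM and Nfkbie at 14.9 ± 1.48 overlapped too. The lowest members were Nfkbid, the gene of the nuclear protein IkBNS, at 9.71 ± 0.925 RPKM, and Nfkbib, the gene of IkB-beta, at 9.53 ± 1.11, and their ranges overlapped. Ranges were separate between Nfkb1 and Rela, between Nfkb2 and Rel, and between Nfkbie and Nfkbid. The place of Nfkb1 depends on the length used. With the length of all exons of the gene together, an alternative chosen after seeing the data, Nfkb1 fell to 34.9 RPKM, next to Rela at 35.7, and Relb with Nfkb2, and Nfkbid with Nfkbib, changed places.

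**Figure D1:**
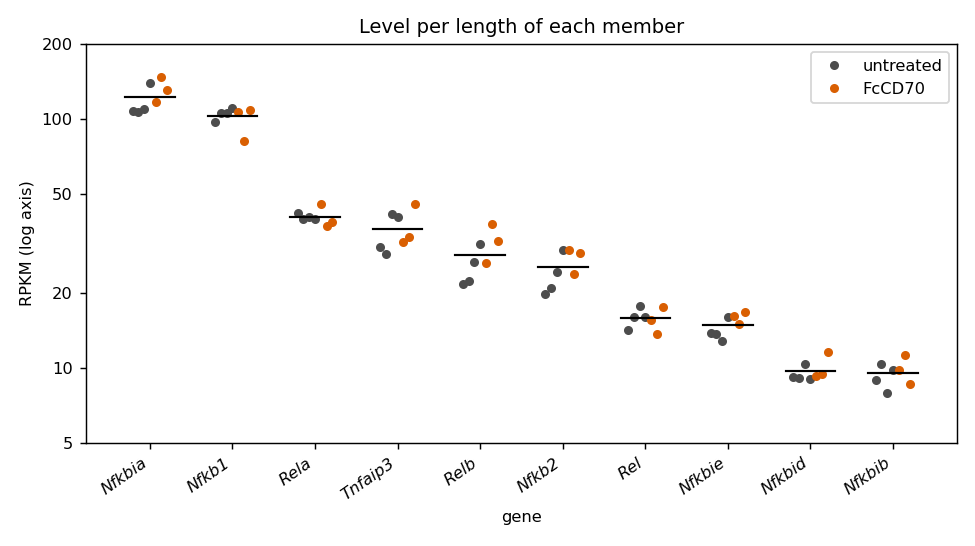
Level of each member per length, in RPKM on a log axis, by gene in order of the mean. Points are the 7 libraries (grey untreated, orange FcCD70) and lines their mean, and the means run from 122 RPKM for Nfkbia and 102 for Nfkb1 down to 9.71 for Nfkbid and 9.53 for Nfkbib.

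Between the groups, 0 of the 10 genes passed the test, and 0% of the 11083 genes tested did (limma on log2(value + 1) with the replicate number as a block, Benjamini-Hochberg adjusted p under 0.05, adjusted p = 0.9998 for each member). At an unadjusted p under 0.05, limma gave 0 of 10 members, against 66 genes higher (0.596%) and 122 lower (1.1%) in FcCD70. No member had groups that did not overlap, against 1.34% of genes with FcCD70 libraries all higher and 1.18% all lower. The fitted log2 fold changes of the members (FcCD70 minus untreated) ran from -0.12 to 0.27, with a median of 0.09, 8 above 0 and 2 below. Over all genes tested the median was -0.0035, with 5443 above 0 and 5640 below. Each 95% interval held 0, and none reached beyond 0.59 upwards or -0.42 downwards. These intervals rest on 3 pairs, because untreated library 4 has no partner, and the fit leaves 2 residual degrees of freedom. Limma adds to these from the spread of all genes, so the intervals do not rest on those 2 alone.

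**Figure D2:**
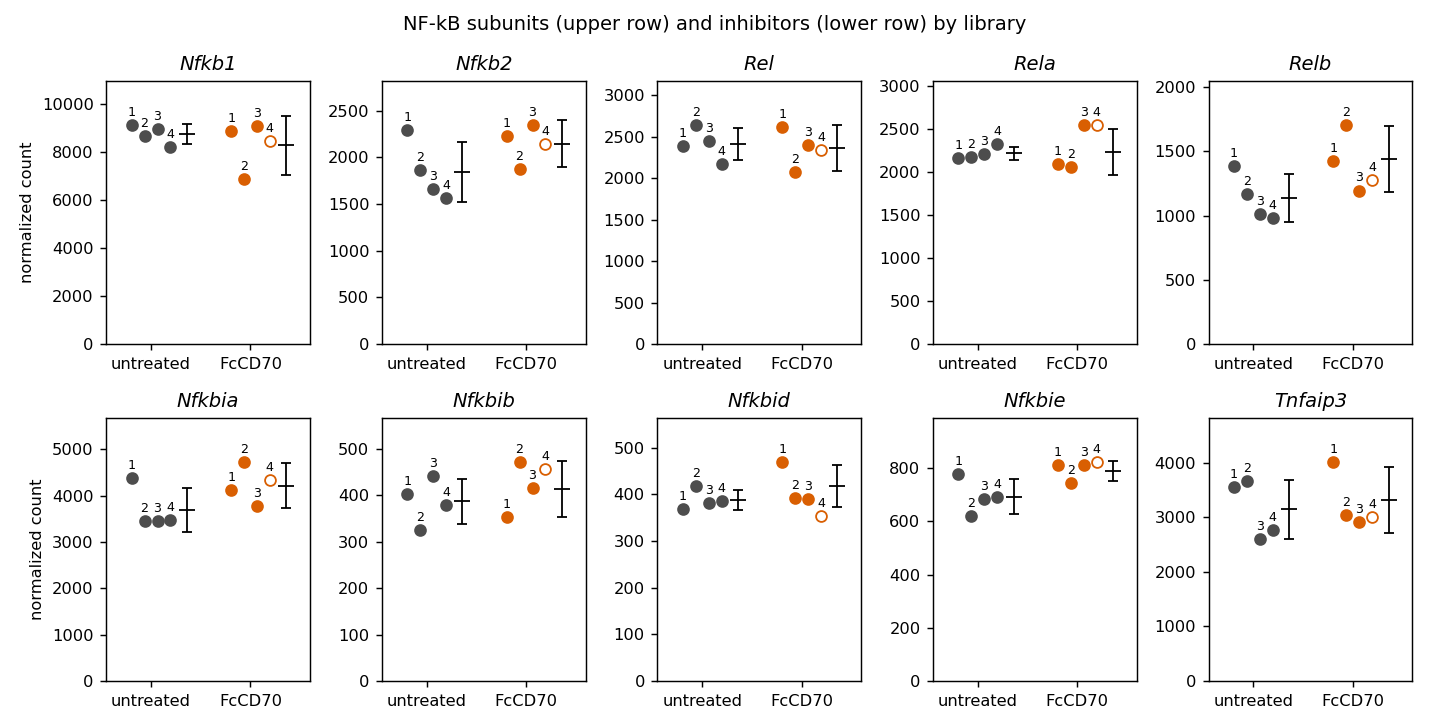
Normalized count of each member (vertical axis, from 0) by group, with the library's number above each point. Filled points are the 7 libraries with a column, bars their mean ± SD, and the open point is the FcCD70 library rebuilt from the authors' mean, which is in no mean or SD, and the groups overlap in all 10 panels.

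Among the subunits, Relb had the smallest p. RELB is the partner of p52 in the alternative branch. The gene (ENSMUSG00000002983) lies at chr7:19606217-19629438 on the minus strand of GRCm38. It had 1390, 1171, 1015 and 982 normalized counts in untreated libraries 1 to 4, and 1428, 1706 and 1196 in FcCD70 libraries 1 to 3. Each FcCD70 library was above its partner, but FcCD70 library 3 lay below untreated library 1, so the groups overlapped. The means were 1139 ± 186 (SD, n = 4) and 1443 ± 256 (SD, n = 3). The log2 fold change was 0.27 (SE 0.14, 95% interval -0.04 to 0.59, limma adjusted p = 0.9998). The differences by pair were 0.04, 0.54 and 0.24, the highest in the pair that holds the library standing apart. Without FcCD70 library 2 and with numbers 1 and 2 against 3 and 4 as a covariate, an alternative chosen after seeing the data, limma gave 0.21 (adjusted p = 0.459). Fits with 1 number left out kept the block, and those with 1 library left out had none. Over these fits the value ran from 0.14 (without the libraries numbered 2) to 0.47 (without FcCD70 library 3 and without the block). With all libraries and no block it was 0.34.

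Nfkb2 encodes p100, which is both an inhibitor and the precursor of p52. It (ENSMUSG00000025225) lies at chr19:46304320-46312385 on the plus strand and overlaps AC114539.1 and Psd on the other strand. Its normalized counts were 2289, 1864, 1660 and 1567 in untreated libraries 1 to 4 and 2224, 1870 and 2347 in FcCD70 libraries 1 to 3. In pairs 1 and 2 the partners were nearly equal (-0.04 and 0.005 on the log2 scale), whereas pair 3 differed by 0.50. The means were 1845 ± 321 (SD, n = 4) and 2147 ± 248 (SD, n = 3), and the log2 fold change was 0.15 (SE 0.14, 95% interval -0.17 to 0.48). Its value depended on the libraries kept. It was -0.02 without the libraries numbered 3, and 0.32 (limma adjusted p = 0.210) without FcCD70 library 2 and with the same covariate as for Relb.

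The canonical subunits lay closer together. Nfkb1 (ENSMUSG00000028163, chr3:135584655-135691547, minus strand) overlaps the gene model Gm43430 on its own strand. How reads in the shared stretch were counted was not given in the sources used here. Its counts were 9120, 8664, 8953 and 8195 in untreated and 8880, 6862 and 9080 in FcCD70 libraries. FcCD70 library 2 was lowest of all 7, and the other FcCD70 libraries fell within the untreated range. The log2 fold change was -0.12 (SE 0.13, 95% interval -0.42 to 0.18), and 0.04 without FcCD70 library 2 and with the covariate. Rel (ENSMUSG00000020275, chr11:23736847-23770970, minus strand) was also lowest in FcCD70 library 2. Rel had 2394, 2645, 2451 and 2179 normalized counts in untreated and 2620, 2078 and 2397 in FcCD70 libraries, which gave a log2 difference of -0.08 (SE 0.13, 95% interval -0.38 to 0.22), and 0.06 without FcCD70 library 2 or 0.0099 without untreated library 2, both without the block. Rela (ENSMUSG00000024927, chr19:5637483-5648130, plus strand) varied least of the 10 members, with a coefficient of variation of 7.45% over the 7 libraries. Rela stood at 2159, 2181, 2207 and 2328 in untreated and 2095, 2063 and 2549 in FcCD70 libraries, which gave a log2 difference of 0.03 (SE 0.12, 95% interval -0.25 to 0.31).

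The shares looked at were 10, those of each subunit among the subunits and of each inhibitor among the inhibitors. Of these, 1 had groups that did not overlap. Among gene levels, 1.34% were all higher and 1.18% all lower in FcCD70. Those rates are of single gene levels, whereas shares within 5 genes depend on each other, so they are not a like measure. Of the summed RPKM of the 5 subunits, Nfkb1 made up 48.6%, 49.2%, 51.7% and 49.9% in untreated libraries 1 to 4, and 47.9%, 42.1% and 47.8% in FcCD70 libraries 1 to 3. All untreated libraries were thus above all FcCD70 libraries, with means of 49.9% ± 1.33 (SD, n = 4) and 45.9% ± 3.34 (SD, n = 3). Without FcCD70 library 2 the groups were still apart, the nearest libraries being untreated library 1 at 48.6% and FcCD70 library 1 at 47.9%. With all-exon lengths the shares of Nfkb1 were 28.7% to 30.8% in untreated and 24.1% to 28.1% in FcCD70 libraries, again apart. No test was made of these shares, which are read over chosen genes. Relb made up 12.1% ± 1.33 (SD, n = 4) and 15.2% ± 3.95 (SD, n = 3), with overlap. Nfkb2, at 11.2% ± 1.34 and 12.8% ± 0.479, Rela, at 19.3% ± 1.68 and 18.9% ± 1.62, and Rel, at 7.61% ± 0.550 and 7.26% ± 0.465, overlapped as well.

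All 5 inhibitor genes had a fitted difference above 0, with a median of 0.10, and none passed the test. For 3 of them the direction turned when 1 library or 1 number was left out. The value became -0.14 for Nfkbib (without the libraries numbered 2) and -0.03 for Nfkbid (without those numbered 1). For Tnfaip3 it was -0.07 without FcCD70 library 1 and without the block. Nfkbie had the smallest p among the 5 inhibitors. It (ENSMUSG00000023947) lies at chr17:45555703-45563169 on the plus strand, just downstream of the window printed above. It had 778, 620, 684 and 691 normalized counts in untreated libraries 1 to 4 and 811, 746 and 811 in FcCD70 libraries 1 to 3. Each FcCD70 library was above its partner, and only untreated library 1 reached into the FcCD70 range. The means were 693 ± 65.1 (SD, n = 4) and 789 ± 37.7 (SD, n = 3), and the log2 fold change was 0.19 (SE 0.14, 95% interval -0.12 to 0.50). Pairs 1 to 3 differed by 0.06, 0.27 and 0.25.

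Nfkbia (ENSMUSG00000021025, chr12:55489410-55492647, minus strand) had 4389, 3445, 3454 and 3471 normalized counts in untreated and 4119, 4737 and 3786 in FcCD70 libraries. Untreated library 1 stood far above the other 3 untreated libraries, which lay close together, and all FcCD70 libraries were above those 3. The means were 3690 ± 466 (SD, n = 4) and 4214 ± 483 (SD, n = 3). The log2 fold change was 0.17 (SE 0.14, 95% interval -0.14 to 0.48), with pair differences of -0.09, 0.46 and 0.13. Without FcCD70 library 2 and with the covariate it was 0.11 (limma adjusted p = 0.710). Without both libraries numbered 2 it was 0.02, and without both numbered 1 it was 0.30. Of the summed RPKM of the 5 inhibitors, Nfkbia made up 62.9% ± 1.99 (SD, n = 4) in untreated and 64.2% ± 3.39 (SD, n = 3) in FcCD70 libraries.

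Tnfaip3 (ENSMUSG00000019850, chr10:19000910-19015657, minus strand) had 3562, 3656, 2608 and 2759 normalized counts in untreated and 4021, 3034 and 2912 in FcCD70 libraries. The libraries separated by number, since all 4 libraries numbered 1 and 2 (3034 to 4021) were above the 3 numbered 3 and 4 (2608 to 2912). Among all genes tested 11.1% showed that order and 11.1% the opposite one, which among members Rela showed (2063 to 2181 against 2207 to 2549). The log2 fold change of Tnfaip3 was 0.02 (SE 0.13, 95% interval -0.28 to 0.32), and 0.14 (limma adjusted p = 0.499) without FcCD70 library 2 and with the covariate.

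The remaining inhibitors were the lowest members. Nfkbib (ENSMUSG00000030595, chr7:28758251-28767512, minus strand) overlaps Ccer2 and Sirt2 on the other strand. It had 403, 326, 441 and 379 normalized counts in untreated and 353, 473 and 415 in FcCD70 libraries, and the pairs differed by -0.19, 0.54 and -0.09, with no common direction. Its log2 fold change was 0.09 (SE 0.19, 95% interval -0.34 to 0.51), the widest interval of the 10. IkBNS, encoded by Nfkbid (ENSMUSG00000036931, chr7:30421732-30428746, plus strand), is known to work with c-REL at Foxp3. Nfkbid had 369, 419, 382 and 386 normalized counts in untreated and 470, 393 and 390 in FcCD70 libraries. FcCD70 library 1 was highest, the rest overlapped, and the log2 fold change was 0.10 (SE 0.17, 95% interval -0.28 to 0.48).

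**Figure D3:**
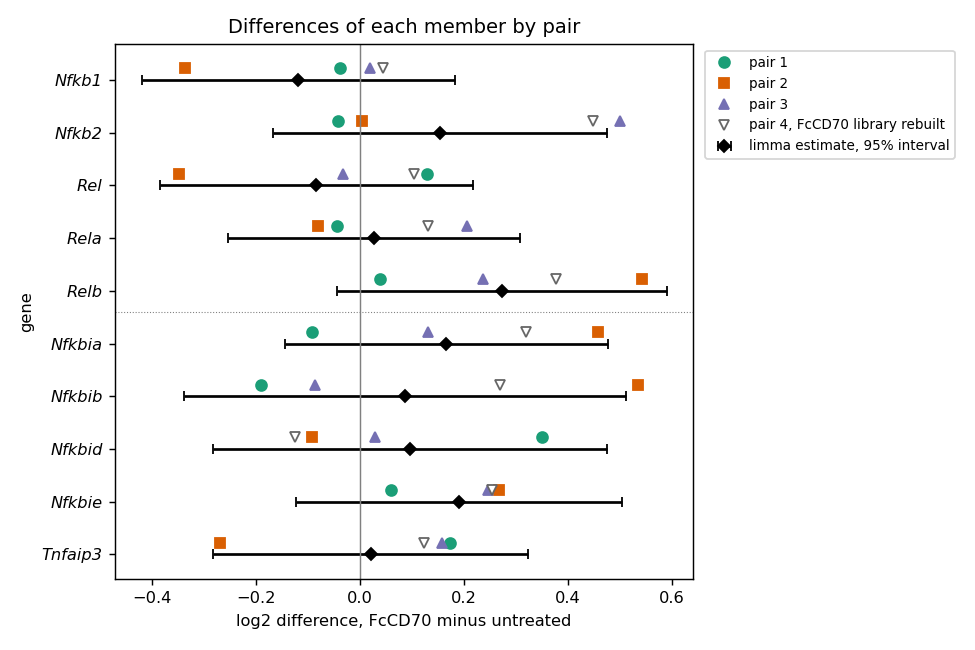
Difference of each member within each same-numbered pair (coloured points) and the limma estimate with its 95% interval (black), on the log2 scale, FcCD70 minus untreated, by gene. Relb and Nfkbie lie above 0 in all pairs, the open triangles use the rebuilt FcCD70 library 4, and every interval crosses 0.

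By pair, 2 of 10 members (Relb and Nfkbie) were higher in FcCD70 in 3 of 3 pairs, against 9.03% of genes tested, and 0 were lower in 3 of 3, against 9.61%. The authors' mean over 8 libraries allowed the eighth library (FcCD70 4) to be rebuilt for alternatives. Its normalized counts were 1275 for Relb and 825 for Nfkbie, so both were higher in 4 of 4 pairs, against 5.73% of genes. It also stood at 2140 for Nfkb2, 4331 for Nfkbia, 8452 for Nfkb1 and 3008 for Tnfaip3, each above its partner. In pair 4, 9 of 10 members were above 0, with Nfkbid at -0.13 the exception, and of 11083 genes 5751 were above 0 and 5331 below. The medians of the 10 members were 0.0005, -0.04 and 0.15 in pairs 1 to 3 and 0.19 in pair 4, so the members lay higher in pairs 3 and 4 than in pairs 1 and 2. Over all genes the medians were -7.4e-05, -0.0040 and 0.00096 in pairs 1 to 3 and 0.0052 in pair 4.

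FcCD70 library 2 was extreme for 6 of the 10 members. It was the highest of 7 libraries for Relb, Nfkbia and Nfkbib and the lowest for Nfkb1, Rel and Rela. The share of all genes with this library as an extreme was not computed, so the count is not read as particular to the members. With that library left out and no block, 9 of 10 members were above 0 and 0 had an unadjusted limma p under 0.05, as had 172 genes of 11103. With that library left out and the covariate in place of the block, which changes both choices at once, 9 of 10 members were again above 0. Of these, 4 (Nfkb2, Relb, Nfkbie and Tnfaip3) were higher at an unadjusted limma p under 0.05, against 4.03% of 11103 genes higher at that p (448 higher and 561 lower). With the rebuilt library added to that fit, 10 of 10 were above 0 and 5 (Nfkbia as well) were higher at an unadjusted limma p under 0.05, against 3.6% of 11096 genes higher at that p (400 higher and 450 lower). The median log2 fold change over all genes was 0.0034 without that library, with or without the covariate, and 0.0020 with the rebuilt library added. Adjusted over all genes no member passed, the lowest limma adjusted p in the fits with the covariate being 0.210 and 0.309. The fits with the covariate were chosen after seeing the data and test the contrast on largely the same libraries.

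In the authors' deposited table, which rests on all 8 libraries, Relb had a log2 fold change of 0.30 (SE 0.13, p = 0.0214, adjusted p = 0.99999) after the sign was turned to FcCD70 minus untreated. In the authors' deposited table the next members were Nfkb2 at 0.23 (p = 0.0846), Nfkbia at 0.20 (p = 0.0886) and Nfkbie at 0.21 (p = 0.119). The authors' deposited table gave the other 6 members values between -0.08 (Nfkb1) and 0.13 (Nfkbib), and no gene of 14728 an adjusted p under 0.05, with 213 (1.45%) at an unadjusted p under 0.05.

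The genes whose levels ran most like those of 3 members are given as a description over 7 libraries, by Pearson's r on log2(value + 1) among 9571 genes, with no test. Of these 7, the libraries numbered 1 and 2 held 18159685 to 19715108 reads and those numbered 3 and 4 held 21200214 to 23527899. Depth thus ran with number, and FcCD70 library 2 stands apart over all genes. The part of these in the likeness was not tested. Nearest to Nfkbia were Caml (r = 0.989), Csrp1 (0.985) and Stxbp3 (0.984). Nearest to Relb were Crem (r = 0.980), a cAMP-responsive transcription factor gene, Rfc2 (0.977), a clamp loader subunit in DNA replication, and Wrap53 (0.976). For both members these genes were, like the member itself, highest in FcCD70 library 2. Nearest to Nfkb2 were Ccl5 (r = 0.955), a chemokine gene, Setbp1 (0.942) and Cln3 (0.940), each highest in untreated library 1.

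In the rest of the pathway no gene passed the adjusted threshold. Bcl3, an IkB family protein that acts in the nucleus with p50 and p52, stood at 63.2 ± 6.32 RPKM (SD, n = 7) with a log2 fold change of 0.06, and Nfkbiz was not analysed here. Of 10 genes of the IKK complex and its upstream kinases, 4 were above 0 and 6 below, with a median of -0.01. Tab2, an adaptor of the kinase TAK1, was the highest of them at 105 ± 8.16 RPKM, and Ikbke, an IKK-related kinase, had the smallest p (limma log2 fold change -0.06). Among the adaptors that carry the antigen receptor signal to IKK, Prkcq, the protein kinase C theta gene, stood at 137 ± 5.49 RPKM. Bcl10, a signalling adaptor, had 1316, 1264, 1334 and 1224 normalized counts in untreated and 1481, 1881 and 1468 in FcCD70 libraries, which did not overlap. Its limma log2 fold change was 0.29 (adjusted p = 0.9998), with FcCD70 library 2 the highest.

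Of 11 TRAF, IAP and linear ubiquitin genes, through which TNF receptor family members signal, 6 were above 0 and 5 below, with a median of 0.03. Traf1 led in level at 105 ± 9.50 RPKM, and Traf3, a brake on the alternative branch, had the smallest p (limma log2 fold change -0.15). Traf3 differed by -0.04, -0.56 and 0.16 in pairs 1 to 3 and by 0.02 in the rebuilt pair 4, with FcCD70 library 2 the lowest. Of 9 deubiquitinases and partners of A20, 6 were above 0 and 3 below, with a median of 0.03. Tax1bp1, an A20 partner, was the highest at 109 ± 8.08 RPKM, and Rnf11, another partner, had the smallest p (limma log2 fold change 0.29). Rnf11 differed by 0.19, 0.72 and -0.05 in pairs 1 to 3, with FcCD70 library 2 the highest. In none of these lists did a gene pass the adjusted threshold or have an unadjusted p under 0.05.

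Of 24 NF-kB target genes known in lymphocytes, 21 were tested, 9 above 0 and 12 below, with a median of -0.03 against -0.0035 over all genes. None passed the adjusted threshold, 2 were lower at an unadjusted limma p under 0.05 (1.1% of all genes), 6 were lower in 3 of 3 pairs (9.61% of all genes) and 2 higher in 3 of 3 (9.03%). Ltb, the lymphotoxin-beta gene, had the highest level at 404 ± 57.4 RPKM and a log2 fold change of 0.26. The survival gene Bcl2l1, which encodes BCL-XL, had the smallest p. It had 956, 935, 873 and 923 normalized counts in untreated and 684, 724.5 and 766 in FcCD70 libraries, so all FcCD70 libraries were below all untreated ones. Its limma log2 fold change was -0.35 (SE 0.14, 95% interval -0.66 to -0.04, adjusted p = 0.9998). Tnfrsf9 too had all FcCD70 libraries (1393 to 1605 normalized counts) below all untreated ones (1630.5 to 2079). The rebuilt FcCD70 library 4 stood at 1857 and fell in the untreated range. Over all genes tested, 1.18% had FcCD70 libraries all lower. Chosen after their values were seen, the other target genes lower in 3 of 3 pairs were Irf4, Il2ra, Tnf, Tnfrsf9 and Cd83. Those higher in 3 of 3, chosen in the same way, were Ier3 (0.55) and Ebi3 (0.30). Ier3 differed by 0.28, 1.27 and 0.08 in pairs 1 to 3, and Ebi3 by 0.26, 0.58 and 0.05. Pair 2 holds the library that stands apart. In the rebuilt pair 4 Ier3 differed by 0.03 and Ebi3 by 0.04. Cd83 was low, at 6.17 to 38.5 normalized counts, and was higher in FcCD70 in the rebuilt pair 4 (1.02). Irf4, a transcription factor of activated and effector Tregs, had a limma log2 fold change of -0.32 (adjusted p = 0.9998), and Il2ra, the CD25 gene, one of -0.26.

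**Figure D4:**
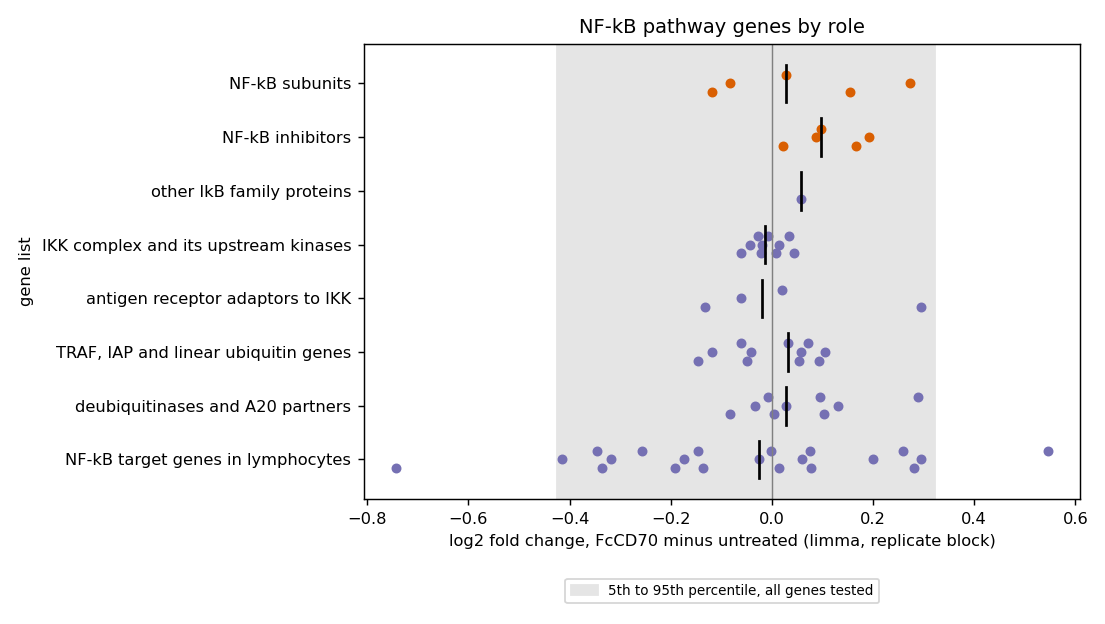
Limma log2 fold change, FcCD70 minus untreated (horizontal axis), of each tested gene of the pathway, by list. Orange points are the 10 members, violet points the other genes, black ticks the median of each list, and the band the 5th to 95th percentile of all genes tested (-0.42 to 0.32), which holds all 10 members.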

How the data were processed

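RNA from 7 libraries of cultured mouse Tregs was read from 1 table (4 titled untreated, 3 titled FcCD70). Per the labels' protocols, libraries were made with a stranded mRNA kit. The submitters' processing notes name TopHat2 (version 2), SAMtools, HTSeq, DESeq2 and GRCm38.p4, with no role or order, while annotation release and strand setting were not given in the sources used here. The deposited library columns hold a signal, reads divided by 1 size factor per library, called normalized count here, and 100% of values came out as whole reads within 0.01. The authors' deposited log2 fold changes, coded untreated minus FcCD70, had their sign turned. The deposited standard errors, p-values and adjusted p-values were copied, and the authors' deposited test statistic, a score, was not used. Gene positions and transcript lengths come from GENCODE M21 on GRCm38, and promoters from RefSeq (GRCm38.p6).

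As the values were not counts, limma (3.58.1, with a trend, R 4.3.3) was run on log2(value + 1) over the 11083 genes whose mean was at least 10, with group and replicate number as terms and Benjamini-Hochberg adjusted p under 0.05. The scale understates changes of low genes. edgeR (4.0.16) and DESeq2 (1.42.0) were run on the recovered reads as alternatives and called 0 and 1 genes. The test was tried on simulated data. Shares of 1 library carry no interval, since shares are of RPKM sums. The FcCD70 library numbered 4 was rebuilt from the authors' mean over 8 libraries (21031069 reads). A DESeq2 refit with it came within 0.0040 of the authors' log2 fold change for each member. The members and lists were chosen with earlier results of these data known. All 10 members are reported, with the gene of smallest p and that of highest level in each other list, each gene of the other IkB family, and the 3 genes nearest to Nfkbia, Nfkb2 and Relb by r among those with a mean of at least 50. Others are named as chosen after their values were seen. A gene of the lists is not reported here.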

Additional observations from a re-analysis of the deposited data

Results flagged for a closer look

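Untreated library 1 stood far from the other untreated libraries for Nfkbia, with 4389 normalized counts against 3445 to 3471. The gap was 0.972 of the range of the 4 untreated libraries, above Dixon's critical value at the 95% level for 4 samples. Among the 10 members this was the 1 gene that passed, and chance passes about 1 in 20 groups. The FcCD70 group, with 3 libraries, was not looked at in this way. Without untreated library 1 and without the block, the log2 fold change of Nfkbia was 0.28, against 0.17 with all libraries and the block.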

How the results depend on the processing

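Over 22 alternatives no member passed the adjusted threshold in any (adjusted p from 0.210 to 1), and 196 of 220 member values kept their direction while 24 turned. Relb (0.14 to 0.47), Nfkbia (0.020 to 0.30) and Nfkbie (0.14 to 0.26) stayed above 0 in all 22, and the median of the members stayed above 0 (0.056 to 0.15). The deviations of same-numbered libraries from their group means correlated with r = 0.304, 0.0144 and 0.435 in pairs 1 to 3, while untreated library 2 with FcCD70 library 1 gave 0.255 and untreated library 4 with FcCD70 library 3 gave 0.347, so the correlations do not show that the numbers pair the libraries. Without the replicate block 0 genes were called and the median of the members was 0.10. Genes called over the whole table numbered 0 in limma and edgeR, with 188 and 168 at an unadjusted p under 0.05. They numbered 1 (Il17f, lower) in DESeq2 with the block, and 0 to 19 when 1 library or 1 number was left out, 19 without the libraries numbered 2 and 6 without those numbered 3. They numbered 6 without FcCD70 library 2 with the covariate, 4 (Kif1b and Ptger2 higher, Myo6 and Pim2 lower) with the rebuilt library added to that fit, and 5 (Il7r, Kif1b and Ptger2 higher, Igfbp4 and Pim2 lower) with it and without both libraries numbered 2. These names were chosen after their values were seen. In those 3 fits Nfkb1 turned to 0.041, 0.019 and 0.0088 and Rel to 0.056, 0.045 and 0.067, and Nfkbib turned to -0.0065 in the first and -0.0018 in the last. With 1 library or 1 number left out, log2 fold changes ran from -0.19 to 0.041 for Nfkb1, -0.018 to 0.34 for Nfkb2, -0.19 to 0.056 for Rel, -0.093 to 0.082 for Rela, -0.14 to 0.22 for Nfkbib, -0.030 to 0.19 for Nfkbid and -0.066 to 0.17 for Tnfaip3. Fits with 1 library left out also had no block and left 4 residual degrees of freedom. Those with 1 number left out kept the block and left 1, so their counts of genes called are not a like measure. The cause of the turns in direction was not tested. With 3 pairs, 1 of them holding the library that stands apart, differences within the intervals given could not be resolved.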
